A study of Rattus norvegicus with 12 samples.

Results

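The dopamine receptors were represented by 5 genes of the 35623 on the array. They were chosen by name as every non-control probe labelled Drd1a, Drd1, Drd2, Drd3, Drd4 or Drd5, which gave 5 of 41012 probes, 1 per gene. The files use the older name Drd1a for Drd1. Expression was measured in dorsal striatum of 12 male rats, with 1 single-colour array per rat and 3 rats in each of 4 groups. Every rat, in all groups, had received 9 µg of the toxin 6-OHDA on 1 side, in the left substantia nigra pars compacta, where the dopamine neurons that supply the striatum lie. The 6-OHDA group had the lesion alone. The HFS group had high frequency stimulation of the subthalamic nucleus, without pause and on the lesioned side, with a frequency of 130 Hz, a pulse width of 80 µs and a current of 60 µA during 5 days. The DOPA group was given 25 mg/kg of the dopamine precursor L-DOPA with 12.5 mg/kg of benserazide, which blocks its conversion outside the brain, injected 2 times a day, 12 h apart, over 19 days. The DOPA/HFS group had both treatments. Among the rats of the arrays, the paper describes the implantation of an electrode for the HFS and DOPA/HFS groups only. It describes no vehicle injection for the groups without L-DOPA. Stimulation and electrode surgery thus cannot be told apart here, nor can L-DOPA and the injections. No unlesioned rat was among the arrays, so the values compare treated with untreated lesioned striatum and hold no comparison with intact striatum.

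Dopamine receptors are G protein coupled receptors in 2 classes. Drd1 and Drd5 encode the D1 class, which raises cyclic AMP through stimulatory G proteins, and Drd2, Drd3 and Drd4 encode the D2 class, which lowers it through inhibitory ones. In the dorsal striatum Drd1 is the receptor of the direct pathway projection neurons and Drd2 that of the indirect pathway projection neurons, while Drd2 is also made by cholinergic interneurons. The dopamine neurons make Drd2 too, but their cell bodies lie in the midbrain, outside the tissue measured. Drd3 is found chiefly in the ventral striatum, Drd5 at low levels in interneurons, and Drd4 chiefly outside the striatum. L-DOPA acts on all of them once it has been converted to dopamine.

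Drd1, Drd2 and Drd5 were well above background on 12 of 12 arrays. Drd3 was well above background on 5 of 12, and Drd4 on 0 of 12. A gene was tested when its probe was well above background on at least a share of 0.4 of the arrays, so that 4 of the 5 receptor genes and 20404 genes in all were tested. Drd3 lay just inside that limit and Drd4 outside it. No receptor spot was saturated or marked as an outlier by the scanner software. Signals of different probes are not on a common scale, so the log2 values below order the samples for each gene and not the genes.

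The defining markers of the neurons that carry Drd1 and Drd2 were present on all arrays. All 7 striatal projection neuron markers with a value on every array (all 8 of the list but Rgs9) were well above background on all arrays, and their summed signal ranged from 247026 to 307663 in 6-OHDA, from 269767 to 283948 in HFS, from 266302 to 297660 in DOPA and from 257548 to 279684 in DOPA/HFS. Of the 4 midbrain dopamine neuron markers, the dopamine transporter gene Slc6a3 was well above background on 0 of 12 arrays, Th on 10, Slc18a2 on 11 and Ddc on 12. Choroid plexus markers, 5 of the 6 listed, summed to between 4055 and 87178 on the HFS arrays, between 157 and 174 in 6-OHDA, between 91.8 and 15958 in DOPA and between 119 and 760 in DOPA/HFS. All 3 HFS arrays thus exceeded every 6-OHDA array, and their part in the receptor values was not tested. The 12 arrays lay on 3 slides, each with 1 array of every group, and the slide number was the replicate number. Between 50.5% and 63.2% of the spots of each array were well above background. DOPA/HFS 3 had 4175 outlier spots against 2 to 25 on the other arrays. DOPA/HFS 1 had a signal of the L-DOPA responsive gene Pdyn among those of the arrays without L-DOPA, so several of the receptor values that rest on it are also given without it. In bulk tissue, fewer cells of a type and less RNA per cell cannot be told apart.

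The first question was whether either treatment moved the D1 class. The log2 signal of Drd1, the direct pathway receptor, was 10.27, 10.68 and 10.67 in the 3 6-OHDA rats. It was 10.40, 10.62 and 10.65 in HFS, 10.44, 10.98 and 10.44 in DOPA and 10.91, 10.67 and 10.31 in DOPA/HFS. The 4 groups overlapped: DOPA 2 and DOPA/HFS 1 were the highest arrays and 6-OHDA 1 the lowest, followed by DOPA/HFS 3. The group means were 10.54 ± 0.24 (SD, n = 3) in 6-OHDA, 10.56 ± 0.14 in HFS, and for the L-DOPA groups 10.62 ± 0.31 in DOPA and 10.63 ± 0.30 in DOPA/HFS. No neighbours in this order differed beyond their spread.

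Drd5, the other receptor of the D1 class, gave 6.90, 6.04 and 6.94 in 6-OHDA and 6.83, 6.31 and 6.65 in HFS. It gave 6.84, 6.38 and 7.10 in DOPA and 7.70, 6.16 and 7.22 in DOPA/HFS. The highest array was DOPA/HFS 1, and replicate 2 was the lowest array of every group. The means ran from 6.60 ± 0.27 in HFS through 6.63 ± 0.51 in 6-OHDA and 6.77 ± 0.36 in DOPA to 7.03 ± 0.79 in DOPA/HFS, and again no neighbours in that order differed beyond their spread.

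Drd2, the receptor of the indirect pathway neurons and the autoreceptor of dopamine neurons, varied more than Drd1 from array to array. Its log2 signal was 11.52, 10.85 and 11.98 in 6-OHDA, so that the lowest and the highest of all 12 arrays were in the same group. It was 11.10, 11.79 and 11.89 in HFS, 11.68, 11.54 and 11.59 in DOPA and 11.93, 11.14 and 11.44 in DOPA/HFS. The SD was 0.57 in 6-OHDA, 0.43 in HFS, 0.40 in DOPA/HFS and 0.071 in DOPA, where the 3 rats lay close together. The means of 11.45, 11.59, 11.50 and 11.60 in the order 6-OHDA, HFS, DOPA/HFS and DOPA did not differ beyond that spread, and every pair of groups overlapped.

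The other D2 class receptors were dim, with Drd3 near the background limit and Drd4 under it. Drd3 gave 4.91, 4.43 and 5.12 in 6-OHDA, 4.86, 3.83 and 4.79 in HFS, 5.11, 3.92 and 5.06 in DOPA and 5.36, 4.16 and 5.04 in DOPA/HFS. The arrays well above background were the first of each group and HFS 3. Drd4 ranged from 2.72 to 4.76 over the 12 arrays with none well above background, so no fold change is given for it.

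**Figure D1:**
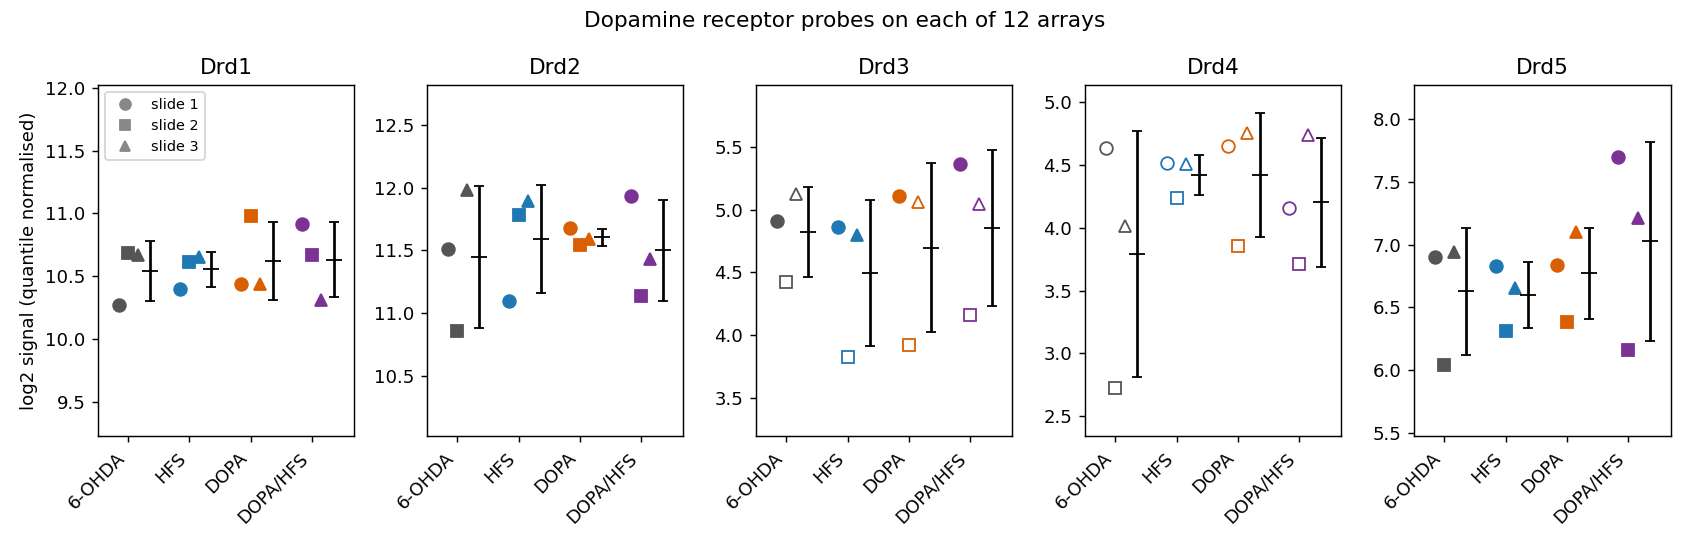
Quantile normalised log2 signal of each dopamine receptor probe (vertical axes, each spanning the same number of log2 units) in the 4 groups (horizontal axes). Circles, squares and triangles are the arrays of slides 1, 2 and 3, open symbols are not well above background, and the black bar beside each group is its mean ± SD (n = 3). The groups overlap for every gene, and the Drd5 and Drd3 squares (slide 2) lie below the circles and triangles of all groups.

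No receptor gene was called in any of 6 comparisons. A call required a Benjamini-Hochberg adjusted p under 0.1 in a limma fit of all 12 arrays, with a fold over 1.2 or under 0.8. Among all 20404 genes tested, that rule called 0% in HFS against 6-OHDA, 0.0049% in DOPA against 6-OHDA, 0% in DOPA/HFS against 6-OHDA, 0.0049% for L-DOPA over both stimulation states (6 arrays against 6), 0% for HFS over both L-DOPA states (6 against 6) and 0% for the interaction of L-DOPA and HFS. The 1 gene called, Igsf5, was the same in both comparisons and is named after its values were seen. At an unadjusted p under 0.05 in limma, 0 of the 4 tested receptors passed in each comparison, where 2.34%, 2.59%, 2.75%, 2.73%, 4.36% and 1.98% of all genes did, in the same order. Arrays of the compared groups overlapped for all 4 receptors, where 5.13%, 6.27%, 4.18%, 0.136% and 0.163% of genes had none overlapping in the first 5 comparisons. The 3 treatments share the 6-OHDA arrays.

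The size of change that these arrays allow differed between the receptors. For Drd1, L-DOPA over both stimulation states gave a fold of 1.05, with a 95% confidence interval from 0.842 to 1.32 (limma), and HFS over both L-DOPA states gave 1.01, from 0.806 to 1.27. For Drd2 the same folds were 1.02, from 0.735 to 1.42, and 1.01, from 0.729 to 1.41. The exact two-sided permutation test, which cannot go below 0.005 in these 6 against 6 comparisons, gave p = 0.595 and p = 0.935 for Drd1 and p = 0.87 and p = 0.945 for Drd2. A doubling or a halving of either gene in these comparisons thus lay outside the intervals.

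Against 6-OHDA alone the intervals were wider. The log2 fold change of Drd1 was 0.01 in HFS (95% interval -0.45 to 0.47), 0.08 in DOPA (-0.38 to 0.54) and 0.09 in DOPA/HFS (-0.37 to 0.55). That of Drd2 was 0.14 in HFS (-0.53 to 0.81), 0.15 in DOPA (-0.52 to 0.83) and 0.05 in DOPA/HFS (-0.62 to 0.72). The sign of the Drd2 values rested on single arrays. Without 6-OHDA 2 they were -0.16, -0.15 and -0.25, without HFS 3 the HFS value was -0.0097, and without DOPA/HFS 1 the DOPA/HFS value was -0.17. The exact permutation test cannot go below p = 0.1 with 3 arrays against 3, and gave 0.7 or more for each of these 6 differences.

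The largest of the differences with L-DOPA was in Drd5. It was 0.28 on the log2 scale over both stimulation states (95% interval -0.30 to 0.87; limma p = 0.31 and adjusted p = 0.9998; exact permutation p = 0.34), and 0.40 in DOPA/HFS against 6-OHDA (-0.44 to 1.23). Of all genes tested, 95.7% had a lower value in the first of these and 94.9% in the second. These ranks do not allow for spread, and 85.3% of genes varied less within groups than Drd5. The size of both Drd5 differences rested on single arrays. They were 0.12 and 0.06 without DOPA/HFS 1, 0.14 and 0.10 without 6-OHDA 2, and 0.50 and 0.83 without DOPA/HFS 2. Drd3 gave -0.32 in HFS (-1.23 to 0.58), -0.12 in DOPA (-1.03 to 0.79) and 0.04 in DOPA/HFS (-0.87 to 0.94), the widest intervals of the family. The interaction of the 2 treatments, that is, the HFS difference with L-DOPA minus the HFS difference without it, was 0.0003 for Drd1, -0.24 for Drd2, 0.48 for Drd3 and 0.28 for Drd5, all with intervals that include 0.

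**Figure D2:**
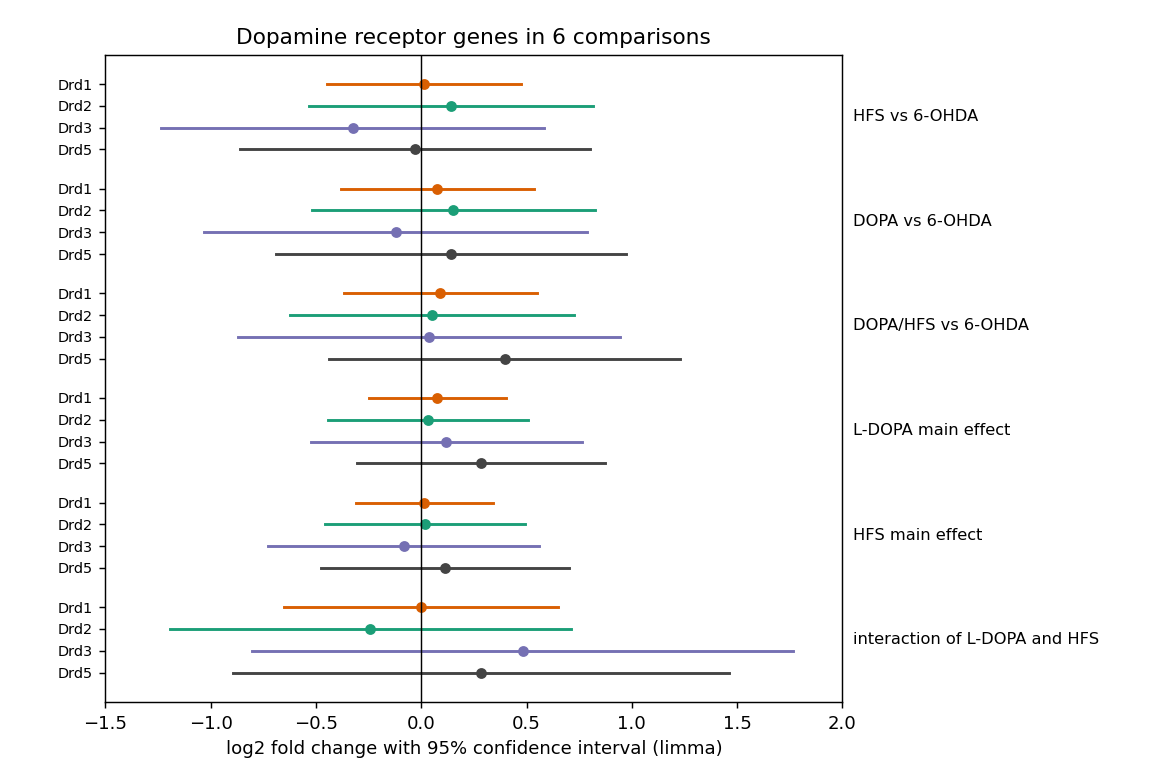
Log2 fold change (points) with its 95% confidence interval (lines; limma, 12 arrays) on the horizontal axis, for the 4 tested receptor genes in each of 6 comparisons, named on the right. Every interval includes 0, those of Drd1 are the narrowest and those of Drd3 the widest in each comparison.

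The Drd1 and Drd2 probes were each printed in 10 spots on every array, which separates the error of a spot from the spread between arrays. With 1 array per rat, differences between rats and between arrays cannot be told apart. The SD among the 10 spots of an array had a median of 0.086 for Drd1 (range 0.074 to 0.12) and 0.070 for Drd2 (0.045 to 0.10) on the log2 scale. The SD between arrays of a group was 0.26 for Drd1 and 0.41 for Drd2. The spread between arrays was therefore several times the error of a mean of 10 spots, which was 0.027 for Drd1 and 0.022 for Drd2. Among all tested genes the median within-group SD was 0.27, and 45.3% of genes varied less than Drd1, 75.6% less than Drd2, 85.3% less than Drd5 and 88.5% less than Drd3. Spots of 1 array share its RNA and labelling, so they add no replicate of a group.

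**Figure D3:**
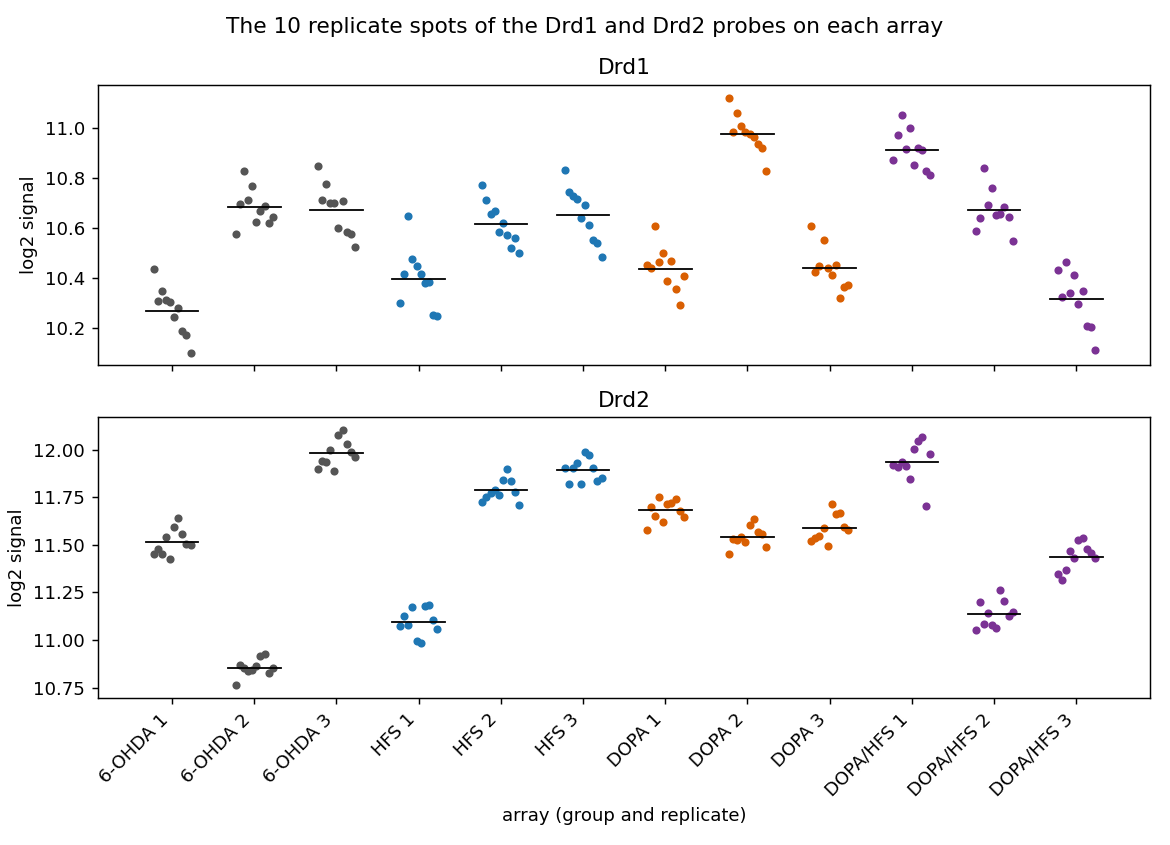
Log2 signal of the 10 spots of the Drd1 probe (top) and the Drd2 probe (bottom) on each of 12 arrays, with a line at their mean. The spots of an array lie close together, while the Drd2 means of 6-OHDA 2 (10.85) and 6-OHDA 3 (11.98) stand apart within 1 group.

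The balance of the direct and the indirect pathway receptor was read within each array as the log2 signal of Drd1 minus that of Drd2, which is free of differences in overall brightness. Its sign carries no meaning, as it also holds the brightness of each probe. The difference was -1.25, -0.17 and -1.31 in 6-OHDA, -0.70, -1.17 and -1.24 in HFS, -1.24, -0.56 and -1.15 in DOPA and -1.02, -0.46 and -1.12 in DOPA/HFS. The groups overlapped, and 6-OHDA 2, with the lowest Drd2 of all arrays, stood apart at -0.17. The balance of the HFS group differed from that of 6-OHDA by -0.13 ± 0.35 (SE), that of DOPA by -0.08 ± 0.35 and that of DOPA/HFS by 0.04 ± 0.35, each with an exact permutation p of 1. L-DOPA over both stimulation states gave 0.05 ± 0.25 (exact permutation p = 0.87). Without 6-OHDA 2 the 3 differences were 0.24, 0.29 and 0.41 (exact permutation p = 0.4, 0.4 and 0.2).

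Drd2 varied together with the mean of the striatal projection neuron markers across the arrays. Its Pearson r with the mean log2 signal of the 7 markers was 0.74 over 12 arrays (permutation p = 0.00655, adjusted p = 0.0328 over 5 relations), and Spearman's rho was 0.70 (permutation p = 0.0139, adjusted p = 0.0695, which misses 0.05). Without the 2 arrays farthest from the median marker level, 6-OHDA 3 and DOPA 3, r was 0.83. Within slides 1, 2 and 3, of 4 arrays each, it was 0.99, 0.82 and 0.91, and with group means removed 0.82. Adora2a and Penk, genes of the Drd2 neurons, are among the 7 markers, which also share each array's labelling with Drd2. The permutation p is against no correlation at all, and whether Drd2 followed the markers more closely than other genes did was not tested. High r with Drd2 was common: 25.2% of 18355 genes had a higher one than Penk, at 0.44. A link particular to the projection neurons is therefore not shown. For Drd1 the same r was 0.45 (permutation p = 0.146, adjusted p = 0.365; rho 0.44, p = 0.154, adjusted p = 0.385; r = 0.43 without the same 2 arrays; 0.66, 0.46 and 0.87 within the slides). Drd1 and Drd2 themselves had r = 0.22 (permutation p = 0.494, adjusted p = 0.823; rho 0.27, p = 0.403, adjusted p = 0.672; 0.69, 0.17 and 0.99 within the slides; 0.29 without 6-OHDA 2 and HFS 1). Drd5 and Drd3 had r = 0.13 and 0.03 with the markers (permutation p = 0.696 and 0.916, adjusted p = 0.87 and 0.916; rho -0.06 and 0, adjusted p = 1 for both; r = 0.21 and -0.03 without the same 2 arrays), and took both signs within the slides. Whether the relation differed between the 2 receptors was not tested.

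**Figure D4:**
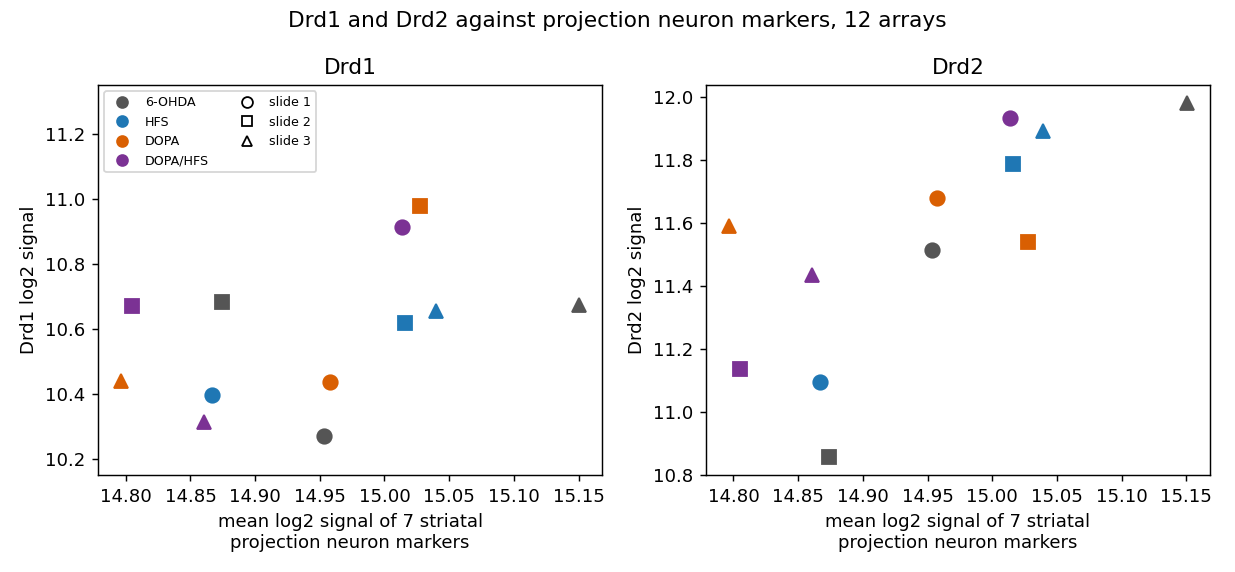
Log2 signal of Drd1 (left) and Drd2 (right) on the vertical axis against the mean log2 signal of 7 striatal projection neuron markers on the horizontal axis, 1 point per array, with colour for group and shape for slide. Drd2 climbs with the markers (r = 0.74) and the colours are mixed along the slope, while the Drd1 points are more scattered (r = 0.45).

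The genes of the neurons that carry each receptor did not follow it closely. Over 12 arrays, the 5 direct pathway genes compared had r from 0.00 to 0.27 with Drd1, and 21.9% of all genes were closer to Drd1 than Tac1 was. Penk and Adora2a, the enkephalin precursor and an adenosine receptor of the indirect pathway, had r = 0.44 and 0.40 with Drd2, and 25.2% and 27.8% of all genes were closer, while Gpr6, the other indirect pathway gene, had r = -0.29. Across the pathways the values took both signs. Adora2a had r = 0.27 with Drd1, but Penk and Gpr6 had r = -0.60 and -0.56, and 96.8% and 95.4% of all genes had a higher r with Drd1. Tac1 had r = 0.37 with Drd2, and the other direct pathway genes compared had r from -0.40 (Chrm4) to 0.01 (Sfxn1) with it. The gene nearest to Drd1 with a current symbol was Fyn, a tyrosine kinase (r = 0.89), and those nearest to Drd2 were RGD1304878 (r = 0.96), LOC681811 (0.96), Klhl22 (0.96), Snrk (0.96) and Plxnb1 (0.95). The genes nearest to Drd5 included Aoc3 (r = 0.92) and Tbxa2r, the thromboxane A2 receptor (0.88). These are the highest of 18355 values for each receptor and are given as a description.

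The weakly expressed receptors moved with the slide. Drd5 was between 6.04 and 6.38 on the 4 arrays of slide 2 and between 6.65 and 7.70 on the other 8. Drd3 was between 3.83 and 4.43 on slide 2 and between 4.79 and 5.36 elsewhere, and was well above background on 4 of 4 arrays of slide 1, 0 of 4 of slide 2 and 1 of 4 of slide 3. For 1.28% of 18356 genes with a value on all arrays, all 4 arrays of slide 2 were below the other 8. Drd1 and Drd2 did not separate in that way, with Drd1 means of 10.50, 10.74 and 10.52 and Drd2 means of 11.56, 11.33 and 11.72 on slides 1, 2 and 3. Drd4, under the background limit, did not separate fully, but its means of 4.49, 3.63 and 4.51 on the same slides were also lowest on slide 2.

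Differences within the slides could therefore be read free of that shift. In DOPA/HFS minus 6-OHDA, Drd5 was higher on 3 of 3 slides, by 0.80, 0.11 and 0.27 on the log2 scale. L-DOPA over both stimulation states gave 0.40, 0.09 and 0.36, also higher on 3 of 3 slides. The largest value of each, on slide 1, includes DOPA/HFS 1, the array that stood apart in Pdyn. In DOPA minus 6-OHDA, Drd5 was -0.06 on slide 1, 0.34 on slide 2 and 0.16 on slide 3. With the slide as a replicate block the SE of the Drd5 difference with L-DOPA over both stimulation states fell from 0.27 to 0.15. Its unadjusted limma p was 0.091 and the adjusted p 0.999, so Drd5 remained uncalled. In the other direction, Drd3 was lower in HFS than in 6-OHDA on 3 of 3 slides, by -0.05, -0.60 and -0.33 (unadjusted p = 0.081 and adjusted p = 0.98 with the block), with 1 of the 3 6-OHDA and 2 of the 3 HFS arrays well above background. Drd1 and Drd2 took both signs over the slides in each comparison. In DOPA minus 6-OHDA, for example, Drd1 gave 0.17, 0.30 and -0.23 and Drd2 gave 0.16, 0.69 and -0.39. The share of all genes with the same sign on 3 of 3 slides was not computed, so the counts of slides are a description. No receptor was called with the block. Each group held 1 position on every slide, so position and group cannot be told apart.

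**Figure D5:**
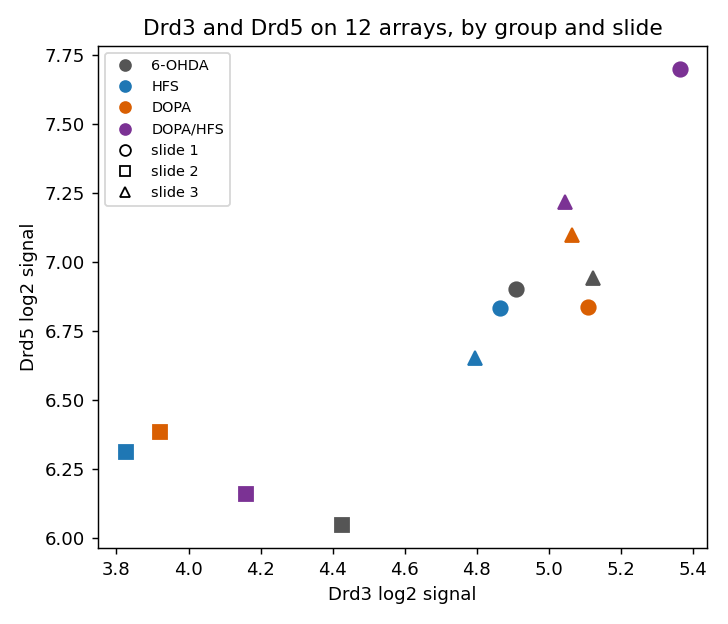
Log2 signal of Drd5 (vertical axis) against Drd3 (horizontal axis), 1 point per array, with colour for group and shape for slide. The 4 squares of slide 2 form a separate cluster at the lower left, at or below 6.38 for Drd5 and 4.43 for Drd3, and every group is represented in it.

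The genes around the receptors gave the setting for these values. In lists of genes of the receptor neurons, G proteins and cyclic AMP enzymes, desensitisation proteins, binding and trafficking proteins, arrestin and kinase effectors and dopamine handling, 68 genes were tested. None was called in any of 6 comparisons in limma. At an unadjusted p under 0.05, 2 were higher and 1 lower in HFS, 5 higher and 1 lower in DOPA, 2 higher and 1 lower in DOPA/HFS, 3 higher and 0 lower with L-DOPA over both stimulation states, 1 higher and 1 lower with HFS over both L-DOPA states and 0 higher and 1 lower for the interaction. Of all genes tested, 1.21% were higher and 1.13% lower at that limit in HFS, 1.32% and 1.26% in DOPA, 0.828% and 1.92% in DOPA/HFS, 1.24% and 1.49% with L-DOPA over both stimulation states, 1.66% and 2.7% with HFS over both L-DOPA states and 0.74% and 1.24% for the interaction. The median log2 fold change of the 68 lay between -0.05 and 0.04 in the 6 comparisons, and that of all genes between -0.02 and 0.01.

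Among the direct pathway genes, Pdyn, the dynorphin precursor that is known to respond to D1 receptor stimulation, had the widest separation. It read 14.53, 14.83 and 14.74 in 6-OHDA, 14.81, 14.72 and 14.36 in HFS, 16.09, 16.21 and 15.98 in DOPA and 14.68, 15.87 and 15.81 in DOPA/HFS. The 3 DOPA arrays lay above all arrays without L-DOPA, and so did DOPA/HFS 2 and 3, whereas DOPA/HFS 1 lay among the arrays without it. Whether that rat or array is as labelled cannot be settled from these data, and it enters every DOPA/HFS, L-DOPA, pooled HFS and interaction value given here. The log2 difference was 1.395 ± 0.28 (SE) in DOPA (limma adjusted p = 0.88) and 1.11 ± 0.20 with L-DOPA over both stimulation states (adjusted p = 0.38). Without DOPA/HFS 1 these became 1.395 ± 0.16 (adjusted p = 0.0149) and 1.30 ± 0.12 (adjusted p = 0.00198). The first difference is the same with and without that array and its SE alone is smaller. The array was singled out by its own Pdyn value, so these p-values are a description of how the call depends on 1 array and no test of Pdyn.

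Since DOPA/HFS 1 stood apart in Pdyn, the receptors were also read without it. Drd1 with L-DOPA over both stimulation states was then 0.00667 ± 0.15 and Drd2 was -0.08 ± 0.22, and neither was called. HFS over both L-DOPA states gave -0.06 for Drd1, -0.09 for Drd2 and -0.06 for Drd5, where all 12 arrays gave 0.01, 0.02 and 0.11. The interaction was -0.14, -0.46 and -0.05 in the same order. Drd1 minus Drd2 was 0.12 in DOPA/HFS against 6-OHDA. The values that follow are again from all 12 arrays unless stated. Ebf1, a transcription factor of direct pathway neurons, was -0.61 ± 0.18 in HFS and -0.62 ± 0.18 in DOPA/HFS (adjusted p = 0.998 and 0.9997). Without DOPA/HFS 1 its DOPA/HFS value was -0.73 ± 0.19. Tac1, the substance P precursor, was 0.37 ± 0.17 in HFS (adjusted p = 0.998) and 0.23 with scaling to the 75th percentile. None of the 3 indirect pathway genes tested (Penk, Adora2a and Gpr6) reached an unadjusted p under 0.05 in any comparison.

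Of the genes that act after the receptors, Gsk3b, a kinase downstream of Drd2 and arrestin, was 0.52 ± 0.21 in HFS and 0.50 ± 0.21 in DOPA and had an interaction of -1.19 ± 0.29 (unadjusted p = 0.0018, adjusted p = 0.99996), and the DOPA value was 0.33 without 6-OHDA 1. Its log2 signal was 9.61, 9.93 and 10.33 in 6-OHDA, 10.25, 10.63 and 10.56 in HFS, 10.47, 10.67 and 10.22 in DOPA and 9.97, 9.77 and 9.63 in DOPA/HFS. Each treatment alone thus gave mostly higher values than 6-OHDA, and both together gave values within its range. Rgs4, which shortens inhibitory G protein signals, was 0.37 ± 0.14 in DOPA. Ncs1, a calcium sensor that binds the D2 receptor, was 0.53 ± 0.21 in DOPA and 0.28 without 6-OHDA 2. Neither was called, and the limma adjusted p of each in DOPA was at least 0.956 under every alternative. The 18 genes of G proteins and cyclic AMP enzymes, Gnal, Adcy5 and Ppp1r1b among them, held 0 with an unadjusted p under 0.05 in any comparison.

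In dopamine handling, Th, the rate-limiting enzyme of dopamine synthesis, was 0.89 ± 0.26 in DOPA and 0.69 ± 0.26 in DOPA/HFS, and Slc18a2, the vesicular monoamine transporter, was -1.03 ± 0.45 in DOPA, each with an adjusted p of at least 0.9997. Without 6-OHDA 2 the Th values were 0.57 and 0.38. The normexp background correction gave 0.27 for Th and -0.45 for Slc18a2 in DOPA, and the deposited log2 table gave 0.11 for Th in DOPA/HFS. The Th arrays were dim, at 5.31, 4.38 and 5.33 in 6-OHDA, 5.98, 5.62 and 6.07 in DOPA and 5.53, 5.505 and 6.04 in DOPA/HFS, and 2 of the 3 6-OHDA arrays were not well above background. Maob, which breaks down dopamine in glia, was 0.41 ± 0.17 with HFS over both L-DOPA states (adjusted p = 0.91) and 0.27 without DOPA/HFS 1.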

How the data were processed

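Each of 12 arrays measured RNA with an integrity number above 8.0 from dorsal striatum punches of 1 rat. The authors deposited scanner files with spot intensity on a linear scale, background-corrected by Feature Extraction 9.1.3.1 (file headers; 9.1 in the submitters' processing notes), and log2 values that the authors had quantile normalized, used as an alternative. From 45018 spots, 1639 controls and the outlier spots were left out, and the log2 intensities were quantile normalized between arrays. The spots of a probe were averaged (41012 probes, 10735 of them named through the RefSeq genes of GRCr8), and probes well above background (a share over 0.5 of their spots) on a share of 0.4 or more of the arrays stayed in, with the brightest probe standing for a gene. Groups were taken from the sample labels. limma 3.58.1 in R 4.3.3 (jsonlite 2.0.0 and data.table version 1.17.8) was fitted over 4 groups of 3 arrays, with Benjamini-Hochberg adjustment over all genes, after a test on simulated data. Relations used 100000 permutations. Precision is limited by the number of arrays. The receptor genes, the pathway and marker lists and the rule for named genes (any receptor, any listed gene and the 5 genes most like each receptor) were chosen with earlier results of these data known. The alternatives were another scaling, background correction, filter, probe rule, threshold or replicate block, the outlier spots kept, the deposited log2 values, fits of only the arrays compared, and leaving out each array. Same-numbered arrays of different groups, which shared a slide, had deviations correlated at over 0.1 in 10 of 18 pairs, against 7 of 36 pairs with different numbers. The main fits and the exact permutation tests left the slide out, and the fit with the slide as a replicate block is given as an alternative.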

Additional observations from a re-analysis of the deposited data

How the results depend on the processing

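No receptor gene was called under any alternative, and the sign of many receptor differences changed with the setting. The cause was not tested. Scaling to the 75th percentile gave -0.021 for Drd1 in HFS against 6-OHDA, -0.012 for Drd1 and -0.026 for Drd2 with HFS over both L-DOPA states, and 0.014 for Drd1 minus Drd2 there. The normexp correction gave 0.045 for Drd3 with HFS over both L-DOPA states and -0.0069 for the Drd1 interaction. The deposited log2 table, in which the median of all genes in DOPA/HFS was -0.12, gave -0.051 for Drd1 and -0.065 for Drd2 in DOPA/HFS, -0.024 for Drd2 and -0.034 for Drd3 with L-DOPA over both stimulation states, -0.068 for Drd1, -0.041 for Drd2 and 0.0395 for Drd3 with HFS over both L-DOPA states, and -0.14 for the Drd1 interaction. Keeping the outlier spots, which moved that median to -0.14, gave -0.053 for Drd1, -0.0498 for Drd2, -0.15 for Drd3 and -0.00280 for Drd1 minus Drd2 in DOPA/HFS, -0.019 for Drd2 with L-DOPA, -0.057 for Drd1 and -0.031 for Drd2 with HFS, both over the states of the other treatment, and -0.14 for the Drd1 interaction. Drd3 dropped out of the test when any of its 5 arrays well above background was left out, under the filter that asks for all 3 arrays of a group, and, in DOPA and in DOPA/HFS, when only the compared arrays were fitted.

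Leaving out each array in turn gave these log2 ranges. In HFS against 6-OHDA they were -0.12 to 0.094 for Drd1, -0.16 to 0.41 for Drd2, -0.52 to 0.0099 for Drd3, -0.32 to 0.13 for Drd5 and -0.33 to 0.24 for Drd1 minus Drd2. In DOPA they were -0.10 to 0.17, -0.15 to 0.42, -0.32 to 0.27, -0.15 to 0.34 and -0.29 to 0.29, and in DOPA/HFS -0.049 to 0.25, -0.25 to 0.32, -0.16 to 0.38, 0.059 to 0.83 and -0.16 to 0.41, in the same order. With L-DOPA over both stimulation states they were -0.013 to 0.16, -0.12 to 0.16, -0.048 to 0.31, 0.12 to 0.50 and -0.060 to 0.23. With HFS over both L-DOPA states they were -0.056 to 0.10, -0.13 to 0.15, -0.28 to 0.090, -0.057 to 0.33 and -0.11 to 0.18. For the interaction they were -0.14 to 0.18, -0.51 to 0.055, 0.094 to 0.83, -0.054 to 0.72 and -0.13 to 0.45.

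The count of called genes, over all genes, also moved. With L-DOPA over both stimulation states it was 2 under normexp, the deposited table, the filter on all 3 arrays of a group and every probe kept, against 1. In HFS it was 3 without a filter, 1 with the filter on all 3 arrays and 2 when only the compared arrays were fitted, against 0. In DOPA it was 0 without a filter, 0 with the replicate block, 0 at an adjusted p under 0.05 and 3 when only the compared arrays were fitted, against 1. With the filter on all 3 arrays it was 1 for HFS over both L-DOPA states and 1 for the interaction, against 0. Leaving out single arrays gave 0 to 2 in HFS, 0 to 13 in DOPA, 0 to 3 in DOPA/HFS, 1 to 29 with L-DOPA, 0 to 1 with HFS over both states and 0 to 0 for the interaction. The replicate block changed no other call.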
